A study of Mus musculus with 6 samples.

Results

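The glucocorticoid receptor gene Nr3c1 and 9 genes known to respond to glucocorticoids in muscle were followed in gastrocnemius of mice with opposite changes of the transcription factor IRF4. The 10 genes were taken by symbol from the gene table of 24054 genes, and all 10 were among the 12660 genes that passed the filter on low counts. They are Nr3c1, Fkbp5, Tsc22d3, Zbtb16, Mt1, Mt2, Cdkn1a, Cebpd, Cebpb and Sgk1. The knockout group (MI4KO) carried Irf4 flox/flox alleles with Myl1-Cre, and the overexpression group (MI4OE) carried Myl1-Cre with the Rosa26-LSL-IRF4 transgene. Each group held 3 libraries from male mice labelled C57BL/6, and both groups shared the Myl1-Cre allele. Myl1-Cre acts in skeletal muscle fibres, so the other cells of the tissue were not targeted in either group. The labels gave a high fat diet for all mice, whereas the study described chow feeding, and the diet is therefore in doubt. Age, time of day, feeding state and recent exercise were not given for these libraries, and no hormone level was analysed here. Gastrocnemius of flox or wild-type mice was not analysed here. Every difference below is therefore MI4OE minus MI4KO and does not tell which group departed from normal muscle.

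Glucocorticoids, corticosterone in the mouse, enter cells and bind the glucocorticoid receptor, which is held in the cytoplasm by HSP90 and its co-chaperones. The bound receptor moves to the nucleus, where it binds glucocorticoid response elements and raises or lowers transcription of nearby genes. In skeletal muscle the hormone is known for promoting protein breakdown and release of amino acids, through targets such as the ubiquitin ligases Trim63 and Fbxo32 and the mTORC1 inhibitor Ddit4. Metallothioneins, small proteins that bind zinc and copper, respond both to glucocorticoids and to metals. None of these genes is read by the receptor alone, and stress kinases, cytokines, fasting and the clock also act on many of them.

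Library totals ran from 18828605 to 29239585 expected counts. Expected counts of Irf4 were 6, 0 and 2 across the knockout libraries and 2864, 10557 and 5911 across the overexpressing libraries, with a log2 fold change of 11.24 ± 0.78 (SE, edgeR quasi-likelihood test, adjusted p = 0.0055; 0.0587 without MI4KO replicate 1). The 0 counts in MI4KO replicate 2 allow up to 0.119 counts per 1000000 (CPM). A panel of 10 fast-fibre genes summed to between 154570 and 287770 CPM over the libraries. MI4KO replicate 1 had the highest fast-fibre sum and the lowest TMM factor, edgeR's scaling for library composition (0.864), and MI4OE replicate 1 had the highest slow-fibre sum at 6909 CPM against 37.5 to 636 CPM in the other 5 libraries. MI4KO replicate 1 was the highest library for 8 of the 10 genes, and the fold changes of the 10 genes are therefore given with and without it. In whole tissue, fewer cells of a type and less RNA per cell cannot be told apart.

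All 10 genes had a negative log2 fold change, that is, a lower fitted level in MI4OE than in MI4KO, where 50% of all tested genes had one. None of the 10 passed an adjusted p of 0.05 in the quasi-likelihood test, a threshold that 0.0237% of all tested genes passed. In this set, 4 of 10 genes met the study's criterion of a 1.5-fold change with an unadjusted p under 0.05 and were lower in MI4OE, namely Tsc22d3, Mt2, Cebpd and Sgk1, against 2.28% of all tested genes in that direction. The unadjusted p was under 0.05 for 4 genes with edgeR's quasi-likelihood test, for 4 with DESeq2 (Fkbp5, Tsc22d3, Cebpd and Sgk1, with no p-value for Mt1 and Mt2), for 5 with edgeR's exact test and for 4 with limma on log2(TPM + 1), beside 7.58% of all tested genes in the first of these, and the only adjusted p under 0.05 among these 4 tools was that of Sgk1 with DESeq2. Values of the 2 groups did not overlap for 3 genes, Tsc22d3, Mt2 and Sgk1, where 5.47% of all tested genes had MI4OE lower without overlap. The median log2 fold change over the 10 genes was -0.94, beside -4.35e-05 over all tested genes.

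The knockout libraries did not behave alike. Of the 10 genes, 8 had their highest value of all libraries in MI4KO replicate 1, which was so for 18.2% of all tested genes. Zbtb16 and Sgk1 were highest in MI4KO replicate 2. For 3 genes, Fkbp5, Mt1 and Mt2, the value in MI4KO replicate 1 was at least 2 times that of the next library, which held for 0.529% of all tested genes. The median of the 10 genes, each centred on its own mean log2 CPM over the 6 libraries, was 0.93 in MI4KO replicate 1, 0.30 in MI4KO replicate 2 and -0.17 in MI4KO replicate 3, beside -0.27, -0.39 and -0.38 in MI4OE replicates 1 to 3. The MI4KO libraries thus spanned a wider range than the MI4OE libraries, and the lowest of them lay close to the MI4OE values. Without MI4KO replicate 1, 8 of the 10 differences were negative (50.2% of all tested genes), the median was -0.37, and 2 genes, Mt2 and Sgk1, still met the criterion (2.56% of all tested genes in that direction).

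**Figure D1:**
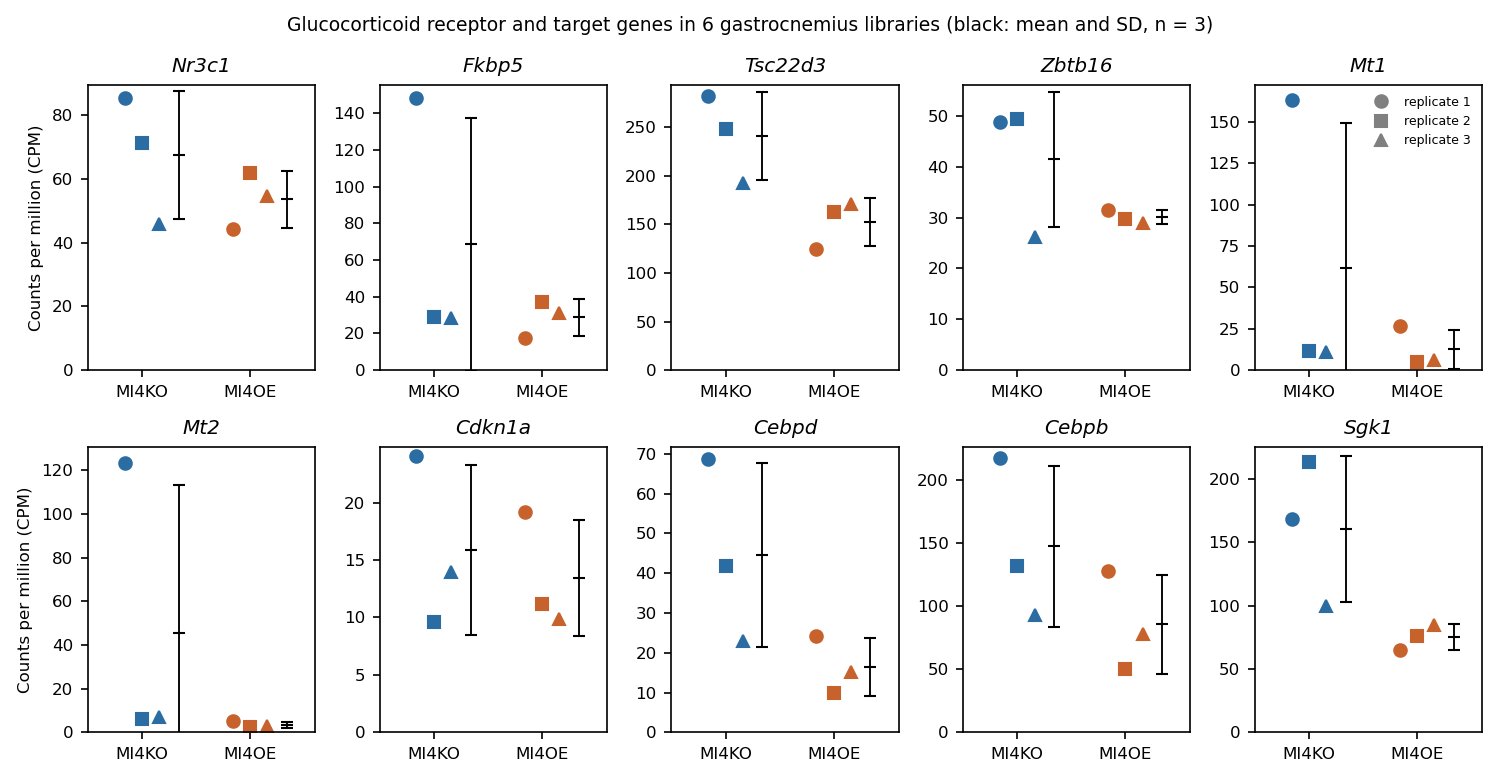
CPM (linear axes from 0) of the 10 genes in each library, with MI4KO in blue, MI4OE in orange and the marker shape giving the replicate; black bars are the mean and SD of 3 libraries, cut at 0 where the SD is larger than the mean. Fkbp5, Mt1 and Mt2 were far higher in MI4KO replicate 1 than in any other library, whereas Sgk1 and Tsc22d3 were higher in all 3 MI4KO libraries than in all 3 MI4OE libraries.

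The receptor gene itself passed neither call rule. Nr3c1 measured 85.3, 71.4 and 45.9 CPM in the knockout libraries against 44.2, 62.0 and 54.8 CPM in the overexpressing libraries. The third MI4KO library lay inside the MI4OE range, so the groups overlapped. The fitted log2 fold change was -0.33 ± 0.25 (SE, 95% interval -0.92 to 0.26, edgeR quasi-likelihood test, adjusted p = 0.836), and it was -0.14 ± 0.26 without MI4KO replicate 1. Leaving out MI4KO replicate 3 instead gave -0.56. A difference of up to 0.92 on the log2 scale in the lower direction is therefore within the interval, and the test does not show that the receptor transcript was equal in the groups.

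Genes that deliver the hormone to the receptor, fold it or act with it on chromatin were taken as a list of 21, of which 20 were tested. In MI4OE, 10 were lower and 10 higher, with a median log2 fold change of -0.01 and values from -0.43 to 0.30, and without MI4KO replicate 1 the split was again 10 lower with a median of 0.0052. None passed either call rule, and none had an unadjusted p under 0.05 with edgeR's quasi-likelihood or exact test, DESeq2 or limma on log2(TPM + 1). Nr3c2, the mineralocorticoid receptor, which also binds glucocorticoids, stood at 2.42, 6.5 and 2.92 CPM in the knockouts, compared with 2.61, 4.75 and 3.71 CPM in the overexpressors. Hsd11b1, which regenerates active hormone inside cells, measured 5.24, 5.19 and 8.77 CPM in the knockout libraries against 4.67, 5.0 and 6.85 CPM in the overexpressing libraries. The groups overlapped for both genes. The log2 fold changes were -0.090 for Nr3c2 and -0.22 for Hsd11b1, and -0.35 for each without MI4KO replicate 1. Hsd11b2, the enzyme that inactivates the hormone, had 0 counts in 5 libraries, which allows up to 0.148 CPM, and 3 counts in MI4OE replicate 2.

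Fkbp5 encodes FKBP51, the co-chaperone that lowers the receptor's affinity for hormone and is itself among the strongest receptor targets. It stood at 148, 29.2 and 28.3 CPM in the knockouts, compared with 17.8, 37.3 and 31.3 CPM in the overexpressors. MI4KO replicate 1 alone was high, 3.98 times the next library, and the other 2 MI4KO libraries lay within the MI4OE range. Its log2 fold change was -1.25 ± 0.66 (95% interval -2.79 to 0.29, adjusted p = 0.728, edgeR quasi-likelihood test). With MI4KO replicate 1 left out it was -0.0030 ± 0.32, with an interval from -0.78 to 0.77, whereas Fkbp5 met the criterion when MI4KO replicate 2 (-1.63) or MI4KO replicate 3 (-1.64) was left out. With all 6 libraries it also met the criterion in DESeq2 (-1.27, unadjusted p = 0.0344, adjusted p = 0.501). Fkbp5, Mt1 and Mt2 stand in a list that the study chose partly on these libraries, so their direction here is not independent evidence.

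Several genes shared this pattern of a high value in a lone library. By root mean square difference of centred log2 CPM over the 6 libraries, the 5 genes outside the set closest to Fkbp5 among 11287 candidates were Zfp605 (0.178), Arhgap26 (0.218), Trim63 (0.324), Ell2 (0.333) and Foxo1 (0.336). Zfp605 was at 10.1 CPM in MI4KO replicate 1 and at 0.987 to 2.40 CPM in the other 5 libraries, and Arhgap26 was at 16.3 CPM against 2.95 to 4.75 CPM. Ell2, an elongation factor of RNA polymerase II, was at 51.2 CPM against 8.84 to 22.3 CPM. Arhgap26, Foxo1 and the zinc importer Slc39a14 described below stand in the same list of the study as Fkbp5. Likeness over so few libraries is a description of these 6 values per gene.

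Tsc22d3, also called GILZ, is a leucine zipper protein that carries part of the hormone's anti-inflammatory action, and it was among the most evenly separated of the genes. The knockouts had 281, 248 and 193 CPM and the overexpressors 124, 162 and 170 CPM. Every MI4KO library lay above every MI4OE library, though MI4KO replicate 3 was close to the highest MI4OE library. The log2 fold change was -0.66 ± 0.22 (95% interval -1.16 to -0.16, unadjusted p = 0.0166, adjusted p = 0.546, edgeR quasi-likelihood test), a level 1.58-fold lower in MI4OE. An exact two-sided permutation test gave p = 0.1, the smallest value that 3 against 3 libraries can give. Leaving out MI4KO replicate 1 gave -0.54 ± 0.23, with an unadjusted p of 0.0588 in the quasi-likelihood test, and the change was under 1.5-fold, also at -0.54, when MI4OE replicate 1 was left out.

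The deposited transcript estimates placed most of Tsc22d3 on NM_010286, with 83.5 to 87% of the gene's counts in MI4KO and 77.4 to 84.1% in MI4OE. NM_010286 measured 245, 216 and 161 CPM in the knockout libraries against 105, 125 and 134 CPM in the overexpressing libraries, a ratio of group means of 1.71. The other transcript, NM_001077364, stood at 36.6, 32.5 and 31.7 CPM in the knockouts, compared with 19.8, 36.7 and 36.8 CPM in the overexpressors, a ratio of 1.08. The groups did not overlap for the main transcript and overlapped for the minor transcript. Reads of 50 bases are divided between transcripts by estimate, and no test was run on these shares.

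Zbtb16 encodes the zinc finger repressor PLZF, a strong glucocorticoid target in many cell types. It measured 48.8, 49.5 and 26.2 CPM in the knockout libraries against 31.6, 29.6 and 29.0 CPM in the overexpressing libraries. The MI4OE libraries were tight, while the MI4KO libraries held 2 high values and the lowest of all 6. Its log2 fold change was -0.46 ± 0.25 (95% interval -1.04 to 0.11, adjusted p = 0.73 with edgeR's quasi-likelihood test) and -0.34 ± 0.28 without MI4KO replicate 1. It was -0.72 and met the criterion when MI4KO replicate 3 was left out.

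The metallothionein genes Mt1 and Mt2 lie side by side on chromosome 8 and spanned the widest ranges of the set. Mt1 stood at 163, 11.5 and 10.7 CPM in the knockouts, compared with 26.4, 5.03 and 6.23 CPM in the overexpressors. Mt2 measured 123, 6.30 and 6.89 CPM in the knockout libraries against 5.07, 2.69 and 2.83 CPM in the overexpressing libraries. MI4KO replicate 1 exceeded the next library 6.18 times for Mt1 and 17.9 times for Mt2. For Mt2 the other MI4KO libraries still lay above all MI4OE libraries, whereas for Mt1 the second highest library was MI4OE replicate 1.

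Mt2 had a log2 fold change of -3.70 ± 1.19 (95% interval -6.47 to -0.92, unadjusted p = 0.0157, adjusted p = 0.546, edgeR quasi-likelihood test). Leaving out MI4KO replicate 1 gave -0.91 ± 0.32, with an unadjusted p of 0.0296 and an adjusted p of 0.823 in the same test, so the direction held and the size was much smaller. For Mt1 the log2 fold change was -2.30 ± 1.17 (95% interval -5.02 to 0.41, adjusted p = 0.722, edgeR quasi-likelihood test), and it turned to 0.17 ± 0.72 without that library, while Mt1 met the criterion when MI4KO replicate 2 (-2.83), MI4KO replicate 3 (-2.83) or MI4OE replicate 1 (-3.47) was left out. With all 6 libraries Mt1 also met it in edgeR's exact test (-2.30, unadjusted p = 0.0412) and in the quasi-likelihood test without the filter on low counts (-2.36, unadjusted p = 0.0461). DESeq2 gave no p-value for either gene because it marked a library as an outlier. The genes are close relatives, and how RSEM divided any shared reads between them is not known here.

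Per length, Mt1 exceeded Mt2 in every library. The ratio of Mt1 to Mt2 TPM was 1.37, 1.88 and 1.61 in MI4KO and 5.39, 1.93 and 2.28 in MI4OE. The ratios of the groups did not overlap, though the ratio in MI4OE replicate 2 lay just above that of MI4KO replicate 2. MI4OE replicate 1, which had the highest ratio, also had the highest slow-fibre sum, and the part of fibre makeup in the ratio was not tested.

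Metal response elements, where the zinc sensor MTF1 binds, are the best known control sites of these genes. The 250 bases before each RefSeq start (build GRCm38.p6, plus strand) are shown because Mt1 and Mt2 both had their highest value by far in MI4KO replicate 1. Capitals mark the core of the element, searched as TGCACNC or TGCGCNC on both strands.
Mt1, chr8:94178839-94179088: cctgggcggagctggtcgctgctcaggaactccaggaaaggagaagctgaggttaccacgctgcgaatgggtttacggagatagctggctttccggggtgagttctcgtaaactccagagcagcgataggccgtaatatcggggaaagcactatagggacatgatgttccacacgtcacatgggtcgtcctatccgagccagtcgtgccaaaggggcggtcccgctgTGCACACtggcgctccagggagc
Mt2, chr8:94172368-94172617: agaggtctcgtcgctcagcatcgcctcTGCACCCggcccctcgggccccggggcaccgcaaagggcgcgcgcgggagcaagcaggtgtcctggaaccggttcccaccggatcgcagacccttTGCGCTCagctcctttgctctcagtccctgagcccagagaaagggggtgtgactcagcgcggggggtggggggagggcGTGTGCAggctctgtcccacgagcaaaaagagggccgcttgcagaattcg
Mt1 held 1 match before its start and 2 more in the 50 bases after it, and Mt2 held 3 before and 1 after. These counts depend on the annotated starts and do not compare whole promoters. Bases farther than 50 after a start were not searched. In all, 25.7% of 32851 windows of 300 bases held at least 1 match and 1.31% held at least 3. In GENCODE the first exon of a Mt1 transcript covers the last 7 bases of the Mt1 window printed above, after the match. The glucocorticoid element searched below had no match in either window. An antisense gene, Gm45774, is annotated across the Mt2 window and much of Mt2, and whether counting used the strand of the reads was not given in the sources used here.

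**Figure D2:**
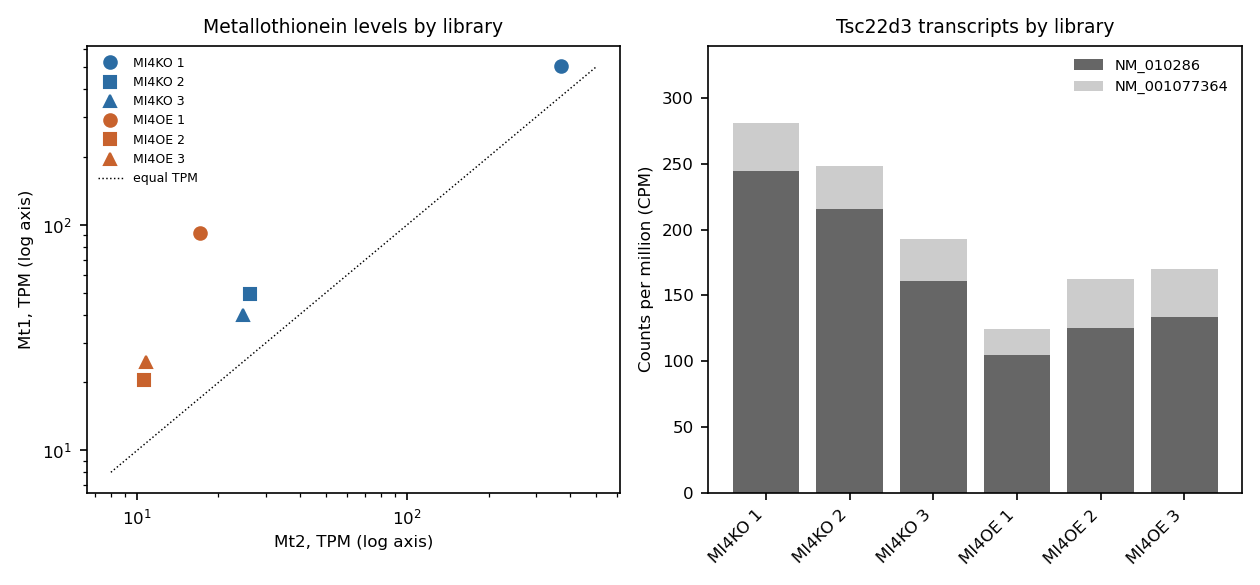
Left, TPM of Mt1 against Mt2 in each library on log axes, with a dotted line where both are equal; right, estimated CPM of the 2 Tsc22d3 transcripts, stacked, in each library. All libraries lay above the line of equal TPM, MI4KO replicate 1 stood far to the upper right, and the NM_010286 segment was taller in all 3 MI4KO libraries than in all 3 MI4OE libraries.

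Other genes of zinc handling did not all follow the metallothioneins. Of 7 listed genes 6 were tested, with 5 lower and 1 higher in MI4OE, and the same split without MI4KO replicate 1. Of all tested genes 50% were lower, and 50.2% without that library. In the quasi-likelihood test 1 of the 6, Slc30a2, met the criterion, lower in MI4OE, beside 2.28% of all tested genes. The unadjusted p was under 0.05 for 2 of the 6 with DESeq2 and for 2 with the exact test of edgeR. Slc30a2, a zinc exporter into vesicles, had 62.5, 24.2 and 25.6 CPM across the knockouts and 15.4, 21.0 and 21.9 CPM across the overexpressors. Its log2 fold change was -0.94 ± 0.38 (unadjusted p = 0.0393, adjusted p = 0.626, edgeR quasi-likelihood test). Its log2 fold change was -0.36 without MI4KO replicate 1, and it no longer met the criterion, nor did it when any MI4OE library was left out (-1.05 to -0.81). The zinc importer Slc39a14 showed a like pattern, with 26.8, 9.15 and 7.89 CPM across the knockouts and 8.22, 7.5 and 5.84 CPM across the overexpressors and a log2 fold change of -1.02, or -0.25 without MI4KO replicate 1. In contrast, Mtf1 and the zinc exporter Slc30a1, an MTF1 target, varied little, from 17.7 to 24.3 CPM and from 4.41 to 6.30 CPM over the 6 libraries. Mt3 was low everywhere, at 0.134 to 1.15 CPM, and Mt4 had no counts in any library.

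Sgk1 encodes a kinase activated by the insulin pathway that opposes muscle wasting and is induced by glucocorticoids through the receptor. It stood at 168, 213 and 99.3 CPM in the knockouts, compared with 64.8, 76.3 and 85.0 CPM in the overexpressors. All MI4KO libraries lay above all MI4OE libraries, and the high value was not that of MI4KO replicate 1 but of MI4KO replicate 2. The log2 fold change was -1.09 ± 0.29 (95% interval -1.75 to -0.42, unadjusted p = 0.00578, adjusted p = 0.496, edgeR quasi-likelihood test), a level 2.13-fold lower in MI4OE. It was -1.06 ± 0.34 without MI4KO replicate 1, and Sgk1 met the 1.5-fold criterion in all 15 alternative analyses. The adjusted p with DESeq2 was 0.0449, and over the 15 alternatives it ranged from 0.0449 to 0.912. The exact permutation p was 0.1, the smallest possible.

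Of 6 annotated Sgk1 transcripts, NM_011361 took 95.1 to 97.4% of the counts in MI4KO and 85.1 to 98.2% in MI4OE. It measured 160, 204 and 96.7 CPM in the knockout libraries against 55.1, 69.4 and 83.5 CPM in the overexpressing libraries, a ratio of group means of 2.22. NM_001161850 stood at 6.21, 6.43 and 1.55 CPM in the knockouts, compared with 6.36, 4.69 and 1.56 CPM in the overexpressors, a ratio of 1.13. Here too the groups were apart for the main transcript and overlapped for the minor transcript.

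Promoter windows were found in RefSeq for 7 of the 10 genes, 15 windows in all. The full glucocorticoid response element, searched as AGAACANNNTGTTC on both strands with overlapping matches counted together, was in 16 of 32851 windows, or 0.0487%. Sgk1 held the sole match among the windows of these genes. It is printed because Sgk1 met the criterion in all 15 alternatives, as the 250 bases before the start of NM_001161850 (build GRCm38.p6, plus strand) with the element in capitals.
Sgk1, chr10:21993640-21993889: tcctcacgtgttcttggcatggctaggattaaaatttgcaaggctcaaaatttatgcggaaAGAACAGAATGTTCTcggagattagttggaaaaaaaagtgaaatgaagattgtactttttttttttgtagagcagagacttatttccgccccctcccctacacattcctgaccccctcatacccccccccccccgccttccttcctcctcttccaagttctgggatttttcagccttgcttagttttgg
The element starts 189 bases before that start and 965 bases before the start of NM_011361, and GENCODE places the window in introns of longer Sgk1 transcripts, outside any exon. The 6-base core AGAACA, which many windows hold by its shortness, was in 19% of all windows. A match of letters does not show that the receptor was bound there, and the lack of a match in the other windows says nothing of sites farther away, where many receptor sites lie.

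Relatives and partners of Sgk1 varied less between libraries, though not all were steady. The highest library was 3.29 times the lowest for Sgk1, and 1.14 to 2.14 times for the 4 tested relatives and partners. The log2 fold changes of these 4 ran from -0.44 to 0.45. Of 5 listed genes 4 were tested, 3 lower and 1 higher in MI4OE with or without MI4KO replicate 1, and none met the criterion or had an unadjusted p under 0.05 with edgeR's quasi-likelihood or exact test, DESeq2 or limma on log2(TPM + 1). Sgk3, which shares substrates with Sgk1, stood at 3.65 to 4.47 CPM in the knockouts, compared with 2.89 to 4.12 CPM in the overexpressors.

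Cebpd and Cebpb, the C/EBP delta and beta transcription factors induced early by glucocorticoids and by cytokines, were both highest in MI4KO replicate 1. Cebpd measured 68.8, 41.8 and 22.9 CPM in the knockout libraries against 24.3, 9.96 and 15.1 CPM in the overexpressing libraries. Cebpb stood at 218, 132 and 92.9 CPM in the knockouts, compared with 128, 50.5 and 77.9 CPM in the overexpressors. For both, MI4OE replicate 1 was the highest MI4OE library and lay above MI4KO replicate 3, so the groups overlapped.

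The log2 fold change of Cebpd was -1.44 ± 0.45 (95% interval -2.49 to -0.39, unadjusted p = 0.0137, adjusted p = 0.546, edgeR quasi-likelihood test), a level 2.71-fold lower in MI4OE. Without MI4KO replicate 1 it was -0.99 ± 0.43 with an unadjusted p of 0.0592. For Cebpb it was -0.79 ± 0.41 (95% interval -1.74 to 0.17, adjusted p = 0.726) and -0.40 ± 0.41 without that library in the same test. Cebpb met the criterion when MI4OE replicate 1 (-1.21, unadjusted p = 0.0157, edgeR quasi-likelihood test) or MI4KO replicate 3 (-1.05, unadjusted p = 0.0404) was left out. The ratio of Cebpb to Cebpd TPM was 4.85, 4.83 and 6.22 in MI4KO and 8.09, 7.77 and 7.90 in MI4OE, and the groups did not overlap. The 3 annotated Cebpb transcripts received equal shares from RSEM in each library and could not be told apart.

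Of the 5 other C/EBP genes listed, 4 were tested, 3 lower and 1 higher in MI4OE (2 lower without MI4KO replicate 1). With or without that library 1 met the criterion, lower in MI4OE. Of all tested genes 50% were lower and 2.28% met the criterion in that direction, or 50.2% and 2.56% without that library. Cebpa, a factor of fat cells and liver, measured 7.78, 20.5 and 42.7 CPM in the knockout libraries against 3.54, 5.07 and 3.80 CPM in the overexpressing libraries (log2 fold change -2.51 ± 0.56, unadjusted p = 0.00239, adjusted p = 0.433, edgeR quasi-likelihood test). Its log2 fold change was -2.93 without MI4KO replicate 1. Its highest library was MI4KO replicate 3, and it did not share the pattern of Cebpd. The 8 adipocyte markers, of which 7 met the criterion lower in MI4OE with or without MI4KO replicate 1 (2.28% of all tested genes in that direction, and 2.56% without that library), summed to 186, 352 and 973 CPM in MI4KO and to 269, 141 and 115 CPM in MI4OE. The adipocyte sum was thus also highest in MI4KO replicate 3, whereas it was lower in MI4KO replicate 1 than in MI4OE replicate 1, and its part in the values of Cebpa, Cebpd and Cebpb was not tested.

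Cdkn1a, the cell cycle inhibitor p21, which both p53 and the receptor induce, stood at 24.1, 9.59 and 14 CPM in the knockouts, compared with 19.2, 11.2 and 9.89 CPM in the overexpressors. The first library of each group was the high value, and the groups overlapped almost fully. The log2 fold change was -0.25 ± 0.38 (95% interval -1.13 to 0.64, adjusted p = 0.912, edgeR quasi-likelihood test) and turned to 0.18 ± 0.34 without MI4KO replicate 1. In the list of cell cycle inhibitors and p53 targets, 10 of 12 genes were tested, 7 lower and 3 higher in MI4OE with or without MI4KO replicate 1. Of all tested genes 50% were lower, and 50.2% without that library. No gene of the list had an unadjusted p under 0.05 in the quasi-likelihood test, and 1 had with each of DESeq2, edgeR's exact test and limma on log2(TPM + 1). Without MI4KO replicate 1 a lone gene, Eda2r (-0.99, unadjusted p = 0.0401, edgeR quasi-likelihood test), met the criterion, beside 2.56% of all tested genes in that direction. Mdm2, the p53 ubiquitin ligase, measured 54.4 to 58.1 CPM in the knockout libraries against 35.9 to 58.5 CPM in the overexpressing libraries, and Ccng1, a p53 target, at 715 to 977 CPM and 433 to 773 CPM.

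**Figure D3:**
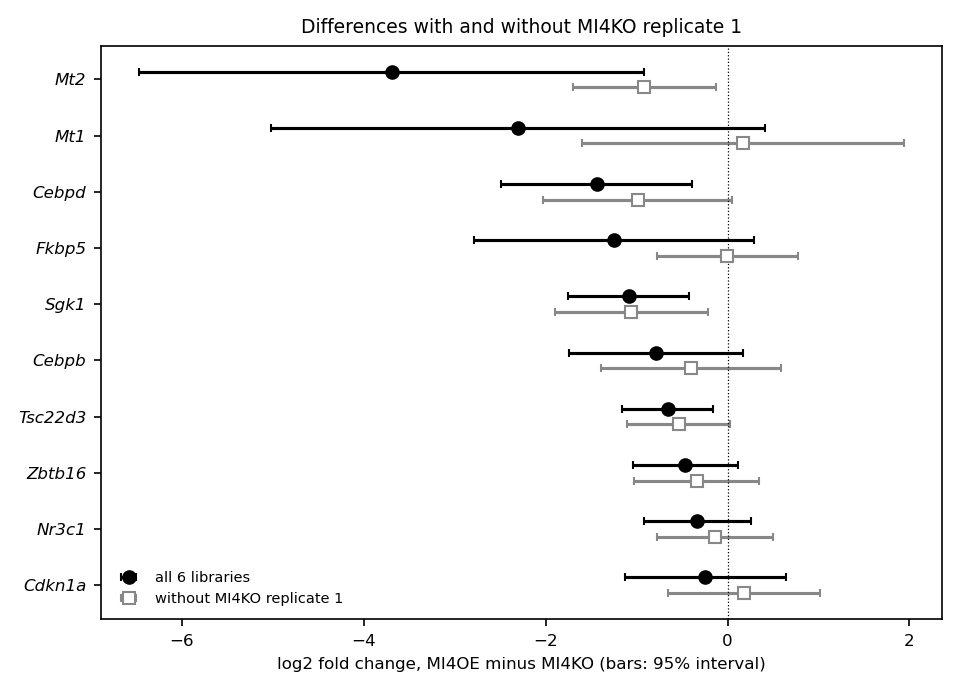
Log2 fold change of MI4OE minus MI4KO for the 10 genes from edgeR's quasi-likelihood fit, with filled circles for all 6 libraries, open squares without MI4KO replicate 1, and bars for the 95% interval. Sgk1 kept its value when the library was left out (-1.09 and -1.06), while Mt2 moved from -3.70 to -0.91, Fkbp5 from -1.25 to -0.0030, and Mt1 and Cdkn1a passed above 0.

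A further 30 genes known as glucocorticoid targets, several of them central to muscle wasting, were read from the same fit. In MI4OE, 28 were lower and 2 higher, beside 50% of all tested genes lower, and 6 met the criterion, all lower, beside 2.28%. None passed the adjusted threshold with edgeR's quasi-likelihood test or with limma on log2(TPM + 1), DESeq2 called 2 of them and edgeR's exact test called 3, and the unadjusted p was under 0.05 for 7, 5, 8 and 7 genes, in that order. The median log2 fold change was -0.33, and -0.29 without MI4KO replicate 1. In that fit 23 of 30 were lower and 3 met the criterion, beside 50.2% and 2.56% of all tested genes. Of these targets, 20 had their highest value in MI4KO replicate 1, beside 18.2% of all tested genes. Their median centred log2 CPM was 0.50, 0.25 and -0.22 in MI4KO replicates 1 to 3 and -0.28, -0.21 and -0.17 in MI4OE replicates 1 to 3, the same order of the MI4KO libraries as for the 10 genes.

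Among the atrophy genes, the muscle ubiquitin ligase Trim63 (MuRF1) measured 810, 263 and 203 CPM in the knockout libraries against 158, 185 and 204 CPM in the overexpressing libraries. Its log2 fold change was -1.22 ± 0.50 (unadjusted p = 0.0413, adjusted p = 0.626, edgeR quasi-likelihood test) and -0.36 without MI4KO replicate 1. It missed the criterion when any MI4OE library was left out as well (-1.33 to -1.14). The companion ligase Fbxo32 (atrogin-1) stood at 733, 366 and 262 CPM in the knockouts, compared with 269, 367 and 377 CPM in the overexpressors, and Foxo1, the transcription factor upstream of both, at 110, 19.7 and 20.1 CPM and 22.9, 23.8 and 26.1 CPM. In all 3 genes MI4KO replicate 1 was the highest library, and without it the log2 fold changes of Fbxo32 and Foxo1 went from -0.43 and -1.04 to 0.095 and 0.28.

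Ddit4 (REDD1), which restrains mTORC1, measured 180, 100 and 23.9 CPM in the knockout libraries against 19.4, 5.31 and 11.8 CPM in the overexpressing libraries. The groups did not overlap, and the log2 fold change was -3.06 ± 0.75 (unadjusted p = 0.00401, adjusted p = 0.483, edgeR quasi-likelihood test) and -2.37 without MI4KO replicate 1. Ddit4 followed the order of the MI4KO libraries seen for Cebpd. Glul, glutamine synthetase, stood at 703, 333 and 241 CPM in the knockouts, compared with 125, 228 and 214 CPM in the overexpressors (log2 fold change -1.17 ± 0.42, -0.61 without MI4KO replicate 1). Lpin1, a phosphatidate phosphatase of lipid metabolism, measured 424, 309 and 233 CPM in the knockout libraries against 157, 234 and 192 CPM in the overexpressing libraries (log2 fold change -0.73 ± 0.27, -0.49 without MI4KO replicate 1). Neither Glul nor Lpin1 met the criterion when MI4KO replicate 1 or MI4OE replicate 1 (-0.95 and -0.60) was left out, and Lpin1 also missed it without MI4KO replicate 2 (-0.77) or MI4OE replicate 3 (-0.73).

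A further 2 targets met the criterion with another pattern. Gadd45g, a stress-response gene, stood at 92.8, 141 and 142 CPM in the knockouts, compared with 48.6, 25.2 and 49.0 CPM in the overexpressors, with a log2 fold change of -1.62 ± 0.30 and -1.80 without MI4KO replicate 1. Angptl4, an inhibitor of lipoprotein lipase made by fat and muscle, measured 6.18, 6.06 and 13.7 CPM in the knockout libraries against 1.57, 2.59 and 2.52 CPM in the overexpressing libraries, with log2 fold changes of -1.95 ± 0.39 and -2.15. Both were highest in MI4KO replicate 3, the library with the highest adipocyte sum. Angptl4 stood there at 2.22 times the next library, but Gadd45g at only 1.01 times. The part of fat in the values of these 2 genes was not tested. Both had an unadjusted p under 0.05 in each of the 15 alternatives.

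Of the other well known targets, Klf9, Klf15, Per1 and Pdk4 did not meet the criterion. Klf9 stood at 129 to 160 CPM in the knockouts, compared with 133 to 160 CPM in the overexpressors, and Klf15, a factor of amino acid breakdown, at 46.8, 36.2 and 26.9 CPM and 29.0, 32.6 and 31.8 CPM. The clock gene Per1 stood at 84.1, 94.8 and 58.6 CPM in the knockouts, compared with 61.2, 57.0 and 60.02 CPM in the overexpressors, so that 2 knockout libraries lay above every overexpressing library. Its log2 fold change was -0.41 (unadjusted p = 0.076, edgeR quasi-likelihood test) and -0.38 without MI4KO replicate 1, and it met the criterion when MI4KO replicate 3 was left out (-0.61, unadjusted p = 0.0146 in that test). Pdk4, which blocks glucose oxidation in fasting, measured 406, 188 and 164 CPM in the knockout libraries against 322, 156 and 222 CPM in the overexpressing libraries. The log2 fold changes of Klf9, Klf15 and Pdk4 were -0.027, -0.23 and -0.12, and 0.026, -0.025 and 0.40 without MI4KO replicate 1. Groups overlapped for all 4, and with all libraries none had an unadjusted p under 0.05 in the quasi-likelihood test.

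**Figure D4:**
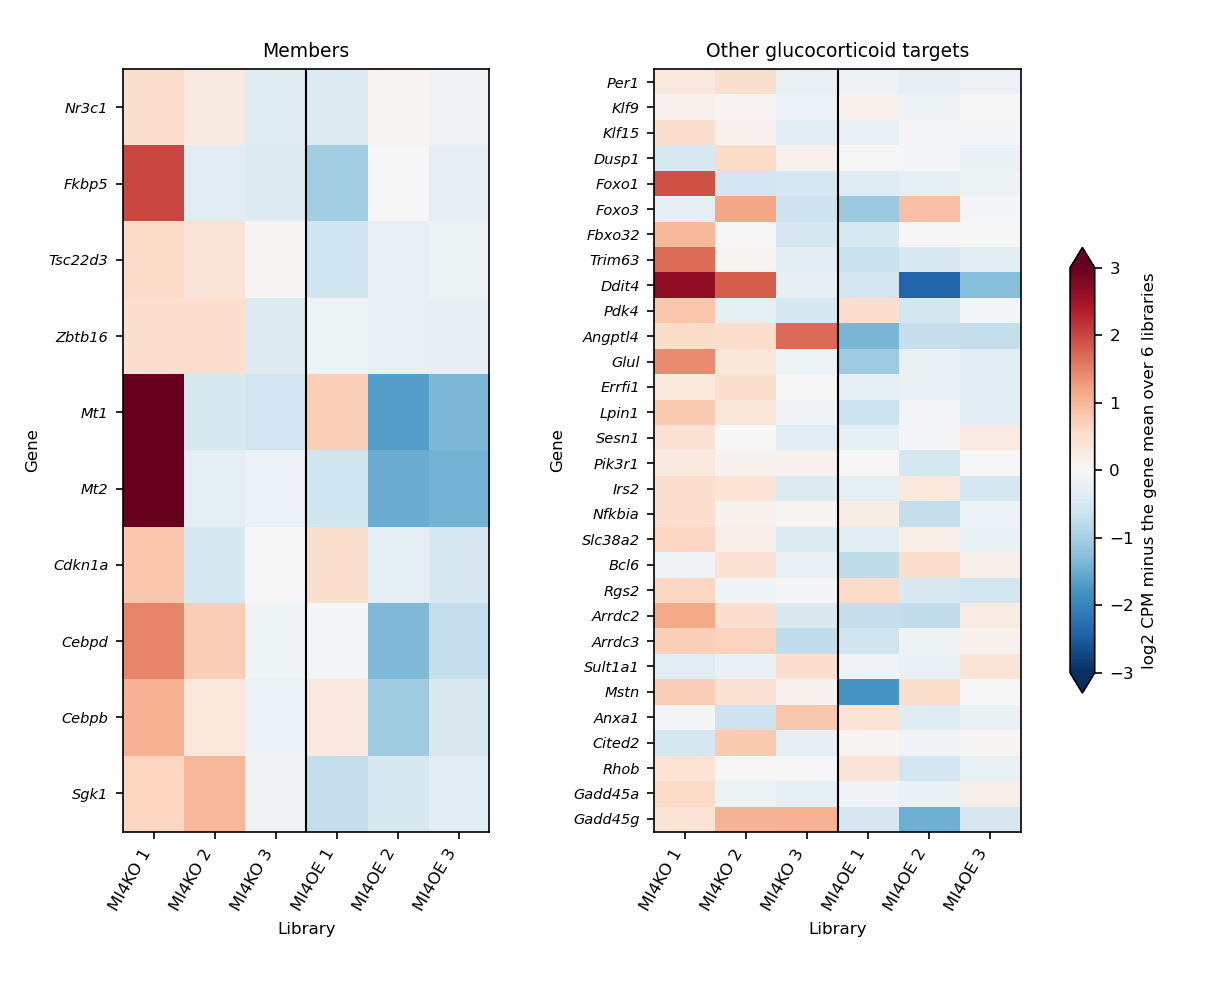
Log2 CPM minus the gene's mean over 6 libraries (colour scale from -3 to 3, with values beyond it in the end colours) for the 10 genes and 30 other glucocorticoid targets, with libraries in columns and a line between the groups. MI4KO replicate 1 held the highest column median in both panels (0.93 and 0.50), while the median of MI4KO replicate 3 (-0.17 and -0.22) lay near those of the MI4OE columns.

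Levels per length (TPM) had the same 4 genes on top in both groups, Tsc22d3, Cebpb, Sgk1 and Mt1. By median TPM the highest was Tsc22d3 (196 in MI4KO and 147 in MI4OE), followed by Cebpb (170 and 92.8) and Sgk1 (93.8 and 55.9). Neighbours in this order overlapped in their ranges over libraries, except Mt2 and Nr3c1 in MI4KO, and except Cebpb and Sgk1 and Mt1 and Nr3c1 in MI4OE. Nr3c1 had a median of 17.9 TPM in MI4KO and 14.7 TPM in MI4OE, below the top targets.

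Lists that share inducers or cell types with these genes were read beside them. In the acute phase and cytokine list, 7 of 9 tested genes were lower in MI4OE, beside 50% of all tested genes, and 1, Serpina3n, met the criterion, beside 2.28%. These counts were 6 and 1 without MI4KO replicate 1, beside 50.2% and 2.56%. The unadjusted p was under 0.05 for 1 gene in the quasi-likelihood test and with limma on log2(TPM + 1), and for 2 with DESeq2 and with the exact test of edgeR, and Serpina3n passed the adjusted threshold with DESeq2. The 9 tested genes summed to 97.3 CPM in MI4KO replicate 1 and to 58.8 to 87.9 CPM in the other 5 libraries, and 3 of them were highest in MI4KO replicate 1.

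Immediate early genes, transcription factors switched on within minutes by stress, activity or hormones, peaked in different libraries. Of 12 tested, 7 were lower, beside 50% of all tested genes, and 5 higher in MI4OE. The quasi-likelihood test put 1, Nr4a1, at an unadjusted p under 0.05, beside 7.58% of all tested genes. Nr4a1 also met the criterion, lower in MI4OE, beside 2.28%. DESeq2 and edgeR's exact test each gave 4 at an unadjusted p under 0.05 and limma on log2(TPM + 1) gave 2. The list summed to 493 CPM in MI4KO replicate 1 and to 232 to 365 CPM in the other 5 libraries. Of these genes 6 were highest in MI4OE replicate 1, of which Ier3 exceeded the next library by 2.53 times, 5 in MI4KO replicate 1 and 1 in MI4KO replicate 3. Of the 5, 4 exceeded the next library at least 2 times, by 8.39 for Fosb, 4.85 for Nr4a3, 3.03 for Junb and 2.32 for Nr4a2. The median log2 fold change was -0.46, and 0.0059 without MI4KO replicate 1. In that fit 6 were lower, beside 50.2% of all tested genes, and none met the criterion. The part of this response in the values of the 10 genes was not tested.

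Of 15 tested clock genes, 8 were lower, beside 50% of all tested genes, and 7 higher in MI4OE. None had an unadjusted p under 0.05 in the quasi-likelihood test or with limma on log2(TPM + 1), while DESeq2 gave 2 and the exact test of edgeR gave 1. Without MI4KO replicate 1, 10 were lower and 1 met the criterion, beside 50.2% and 2.56% of all tested genes. That gene was Bhlhe40 (-0.70, unadjusted p = 0.0178, edgeR quasi-likelihood test). Nr4a1, Fosb, Nr4a3, Junb, Nr4a2, Ier3, Serpina3n, Eda2r and Bhlhe40 were named after their values were seen. Cell type markers were read in the same way. Macrophage markers, 7 tested, summed to 26.3 to 46.1 CPM in MI4KO and to 18.0 to 35.4 CPM in MI4OE, with none at the criterion with or without MI4KO replicate 1. Endothelial markers summed to 109 to 172 CPM in MI4KO and to 190 to 373 CPM in MI4OE. Of the 8, 5 met the criterion and were higher in MI4OE (4.36% of all tested genes in that direction). All 8 were highest in MI4OE replicate 1, at 373 CPM in sum against 190 and 226 CPM in MI4OE replicates 2 and 3. Fibroblast markers summed to 229 to 374 CPM and 394 to 535 CPM, with 7 of 8 at the criterion and higher in MI4OE. Without MI4KO replicate 1, 1 endothelial and 5 fibroblast markers met the criterion, higher in MI4OE, beside 298 of all 12875 tested genes in that direction. Hepatocyte markers summed to 176 CPM in MI4KO replicate 3 and to between 11.6 and 29.6 CPM in the other 5 libraries. Of their 8 genes, 5 did not pass the filter. Of the 3 tested, 2 met the criterion, lower in MI4OE, with or without MI4KO replicate 1 (2.28% and 2.56% of all tested genes). Slow-fibre markers summed to 37.5 to 132 CPM in MI4KO and to 49.3 to 6909 CPM in MI4OE. All 8 were highest in MI4OE replicate 1, and the sum in MI4OE replicate 2 (49.3 CPM) lay within the MI4KO range. Their median log2 fold change was 6.25, and 7 of 8 met the criterion, higher in MI4OE (4.36% of all tested genes in that direction). None met it without MI4KO replicate 1, when the median was 5.69. No fast-fibre gene of 10 met it with or without that library. Among the cell type panels, MI4KO replicate 1 had the top sum for fast-fibre genes and not for adipocyte, macrophage, endothelial, fibroblast, hepatocyte or slow-fibre markers, and the part of cell makeup in the 10 genes was not tested.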

How the data were processed

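RNA of 6 gastrocnemius samples was made into stranded mRNA libraries and sequenced as single reads of 50 bases. According to the labels and methods, the authors demultiplexed reads with bcl2fastq 2.17, mapped them to a UCSC transcript set with Bowtie2 2.1.0 and quantified them with RSEM 1.2.15. The genome build was not given in the sources used here. The authors deposited RSEM's expected counts for genes and for transcripts, which are raw estimates and need not be whole, and TPM values, which RSEM corrects for length and depth. The tables in which the authors gave fold changes, p-values, false discovery rates and normalized values for their own comparisons were not used.

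Expected counts were rounded, genes were kept by edgeR's filterByExpr (minimum count 10, minimum total 15), and MI4OE was compared with MI4KO by edgeR's quasi-likelihood test with TMM scaling (edgeR 4.0.16, R 4.3.3) without covariates. Benjamini-Hochberg adjustment covered all tested genes. The study's criterion, 1.5-fold with an unadjusted p under 0.05, was read from the same fit. CPM are counts per 1000000 of the TMM-scaled total, and centred log2 CPM used a prior count of 2. Single genes were also given a two-sided exact permutation test. Alternatives were other scalings and filters, DESeq2 1.42.0, edgeR's exact test, limma 3.58.1 on log2(TPM + 1) and log2(TPM + 0.1), and leaving out each library. A gene at 0 was given the limit of 3 counts, 0.101 to 0.148 CPM over the libraries, which covers counting error only. The labels do not say whether the samples of a group were housed, killed or prepared apart, so p-values measure the spread between these samples. The genes and lists were chosen with earlier results of these data known. Genes named besides the 10 were those of the target, receptor and family lists that met the criterion, a set of 18 widely known ones, and the 5 closest to Fkbp5. Nr4a1, Fosb, Nr4a3, Junb, Nr4a2, Ier3, Serpina3n, Eda2r and Bhlhe40 were named after their values were seen, and Hsd11b2 and Mt4 as list members that were not tested. Promoter windows and their starts are from RefSeq (GRCm38.p6). The Sgk1 transcripts matched to those starts, and the exons across the printed windows, are from GENCODE M21.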

Additional observations from a re-analysis of the deposited data

How the results depend on the processing

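No paired analysis was possible because the labels give the libraries no replicate numbers that tie MI4KO to MI4OE. Over 15 alternatives the 10 genes gave 148 values, of which 145 kept their direction and their side of the adjusted threshold. Mt1 (0.17) and Cdkn1a (0.18) reversed without MI4KO replicate 1, and ran from -3.47 to 0.17 and from -0.60 to 0.18 over the fits that left out a library, and Sgk1 passed the threshold with DESeq2 (log2 fold change -1.10). Scaling by total counts without TMM moved the median of all genes to 0.090 on the log2 scale, and all 10 genes were still lower in MI4OE. The genes called over the whole table numbered 3, 111 with DESeq2, 108 with edgeR's exact test and 1 to 4 when a library was left out. Genes at the 1.5-fold criterion numbered 841, 468 with limma on log2(TPM + 1) and 590 to 1314 when a library was left out. Of the 10 genes, 4 met that criterion and 2 to 8 did so when a library was left out, with 2 without MI4KO replicate 1 and 8 without MI4KO replicate 3, while 1 passed the adjusted threshold with DESeq2. The genes gained without MI4KO replicate 3 were Fkbp5, Zbtb16, Mt1 and Cebpb. Of the 30 other targets, 6 met it and 3 to 11 did so when a library was left out, with 3 without MI4KO replicate 1 and 11 without MI4KO replicate 3. The median of the 10 genes was -0.94 and ran from -1.20 (without MI4KO replicate 3) to -0.37 (without MI4KO replicate 1). Cebpd missed the criterion when MI4KO replicate 1 was left out, and so did Tsc22d3, which also missed it when MI4OE replicate 1 or TMM was left out.

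Other named genes also changed sign. Nr3c2 was 0.0036 and 0.053 with limma on log2(TPM + 1) and log2(TPM + 0.1), 0.46 without MI4KO replicate 2 and 0.10 without MI4OE replicate 1, and at the least -0.35. Hsd11b1 was 0.064 without MI4KO replicate 3. Klf9, Pdk4 and Mtf1 were 0.073, 0.038 and 0.028 without TMM, 0.038, 0.0075 and 0.0056 with limma on log2(TPM + 1), and 0.039, 0.0078 and 0.0086 on log2(TPM + 0.1). The lowest values with a library left out were -0.41 for Hsd11b1, -0.13 for Klf9, -1.44 for Foxo1, -0.43 for Pdk4, -0.72 for Fbxo32, -0.16 for Mtf1, -0.19 for Slc30a1 and -0.24 for Sgk3. Without MI4KO replicate 1, Klf9 was 0.026, Foxo1 0.28, Pdk4 0.40 and Fbxo32 0.095. Without MI4OE replicate 2, Klf9 was 0.034, Pdk4 0.10 and Sgk3 0.0035. Mtf1 was 0.045 without MI4KO replicate 2 and 0.033 without MI4OE replicate 1, and Slc30a1 was 0.053 without MI4KO replicate 2. Ddit4 passed the adjusted threshold with edgeR's exact test, and Cebpa, Angptl4 and Gadd45g with that test and DESeq2. The cause of these changes was not tested. Levels under 0.101 to 0.148 CPM, depending on the library, were not detectable at this depth.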
